A study of Arabidopsis thaliana with 16 samples.

Results

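Class I KNOX and BELL proteins are homeodomain transcription factors that act as partners in the shoot meristem. The 7 genes described here were 4 class I KNOX genes, SHOOT MERISTEMLESS (STM), KNAT1, KNAT2 and KNAT6, and 3 BELL genes, BLH8 (also called POUND-FOOLISH), BLH9 (also called PENNYWISE) and ATH1, of 27444 protein-coding genes on the nuclear chromosomes. They were listed by locus, and the choice was made with earlier results of these data known. Peaks were collected from 3000 bp upstream of each gene start to 1000 bp past each gene end, in windows that together spanned 57190 bp. Binding was measured by DNA affinity purification sequencing (DAP-seq), in which a tagged protein made outside the plant is mixed with fragmented genomic DNA and the DNA it retains is sequenced.

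The baits were the AP2-domain transcription factors PLETHORA (PLT) 3, PLT5 and PLT7, each with a 3xFLAG tag, and green fluorescent protein (GFP) as the control protein. Genomic DNA of Col-0 plants came either from shoot apical meristems (SAMs) of seedlings grown for 9 days on medium, or from inflorescence meristems (IMs) of soil-grown plants aged 4 to 8 weeks, all in long days. Each of the 8 combinations of bait and tissue had 2 replicates of c. 500 pooled meristems, which gave 16 libraries. The proteins met purified DNA that kept its methylation but not its chromatin, so the peaks report which DNA can be bound and not whether a gene is expressed or regulated, and tissue identity could not be checked against marker genes. The deposited peak lists held 3837 to 32116 nuclear peaks for the 12 PLT libraries and 5026 to 9933 for the 4 GFP libraries. The peak lists carry no read counts, so the depth behind each library is unknown here and a missing peak means only that the caller's threshold was not passed.

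In the meristem, STM keeps cells undifferentiated, and KNAT1 (BREVIPEDICELLUS) shapes internodes and pedicels together with it. KNAT2 and KNAT6 are close paralogues. BELL proteins pair with KNOX proteins, and the pairing of STM with BLH9, BLH8 or ATH1 is known to be needed for normal stem growth, phyllotaxis and the switch to flowering. PLT proteins are known for meristem and primordium functions in root and shoot.

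The sequences under the peaks are shown first for the sites in which the best match to a PLT7 binding matrix passed a threshold. A site is a group of PLT peak summits at most 100 bp apart, with a peak in both replicates of at least 1 bait and tissue, and it is named by the gene and the distance of its median summit from the gene start, negative upstream. The matrix was 16 bp wide and was fitted to summits of IM PLT7 peaks outside the windows of the 7 genes. Its 3 most constrained positions held a single base at frequencies of 0.896, 0.923 and 0.933. Each sequence is printed 5′ to 3′ on the strand of its gene, from the RefSeq TAIR10.1 genome, with the best match in capitals. For the sites in a 3′ UTR only 30 bp are shown.
KNAT2 +1106 bp, intron 3, chr1:26577542-26577642, plus strand: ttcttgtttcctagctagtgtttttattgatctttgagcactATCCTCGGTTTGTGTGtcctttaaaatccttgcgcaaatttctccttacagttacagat
BLH9 +1087 bp, intron 1, chr5:396604-396704, plus strand: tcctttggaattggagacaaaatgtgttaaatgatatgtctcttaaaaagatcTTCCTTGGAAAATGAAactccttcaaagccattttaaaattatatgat
KNAT1 +2499 bp, intron 4, chr4:5148610-5148710, minus strand: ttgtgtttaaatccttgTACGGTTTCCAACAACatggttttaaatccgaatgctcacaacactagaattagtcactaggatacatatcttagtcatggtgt
BLH8 -738 bp, upstream, chr2:11925436-11925536, minus strand: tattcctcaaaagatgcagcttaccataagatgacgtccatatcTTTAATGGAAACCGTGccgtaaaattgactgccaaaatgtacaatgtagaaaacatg
KNAT2 +5818 bp, 3′ UTR, chr1:26582287-26582316, plus strand: gagacatTGTATTGGAAATAGTGgcaatat
KNAT2 +5978 bp, 3′ UTR, chr1:26582462-26582491, plus strand: tatttggCTCGGTTTCGGAGCCGgattttt
The highest score was that of KNAT2 +1106, 13.1 on the log2 odds scale, above 95.6% of the other PLT sites of the genome, and the centre of its match lay 0.5 bp from the median summit. BLH9 +1087 scored 11.7, KNAT2 +5818 scored 11.8 and KNAT1 +2499 scored 10.6. BLH8 -738 scored 9.17 and KNAT2 +5978 scored 8.82, close to the threshold of 8.60.

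A second set is shown because it was well bound or came close to the threshold without a match that passed. In the sequence of BLH9 -1167 the capitals mark each copy of AACGTA, and in both STM sequences they mark the best matrix match, which stayed below the threshold.
BLH9 -1167 bp, upstream, chr5:394350-394450, plus strand: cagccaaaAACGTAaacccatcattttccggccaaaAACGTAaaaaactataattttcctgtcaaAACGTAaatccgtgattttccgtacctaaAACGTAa
STM +2121 bp, intron 2, chr1:23059892-23059992, minus strand: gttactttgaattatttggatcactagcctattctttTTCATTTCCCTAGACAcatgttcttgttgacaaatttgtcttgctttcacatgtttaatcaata
STM +171 bp, 5′ UTR, chr1:23061878-23061907, minus strand: ctcttttAGGGTTTCCCAATAAAtttatag
STM +2121 scored 8.06 and STM +171 scored 3.63. The best matrix match of BLH9 -1167, searched within 50 bp of its median summit, scored 4.01, above only 11% of the other sites. Its 101 bp held 4 copies of AACGTA, all on the printed strand. The word AACGTA was searched on both strands after this sequence had been seen. It occurred in 3.59% of the 33344 PLT sites of the genome and at least 4 times in 0.03% of them, and in none of the other 15 sites of the 7 genes. Because the word was picked for its repeats here, and repeats of other words were not counted, these shares do not measure how unusual the site is.

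Across the 12 PLT libraries, 112 peaks fell into the windows of the 7 genes, 42 with PLT3, 15 with PLT5 and 55 with PLT7. SAM and IM DNA contributed almost equally, with 57 and 55 peaks. KNAT2 had the most, 37 peaks from all 12 PLT libraries, followed by STM with 29 from 10 libraries and BLH9 with 26 from 11 libraries. These counts were not adjusted for window length, which was 10394 bp for KNAT2, 7482 bp for STM and 7559 bp for BLH9. BLH8 had 12 peaks from 8 libraries, none of them from PLT5. ATH1 had 4 peaks from 4 libraries, KNAT1 had 3 from 3 libraries and KNAT6 had 1. The 4 GFP libraries added 24 peaks, at every gene except ATH1. Peak density per 10 kb in the windows was below the genome value in 9 of the 12 PLT libraries and above it in 3, whereas it was above the genome value in all 4 GFP libraries.

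**Figure D1:**
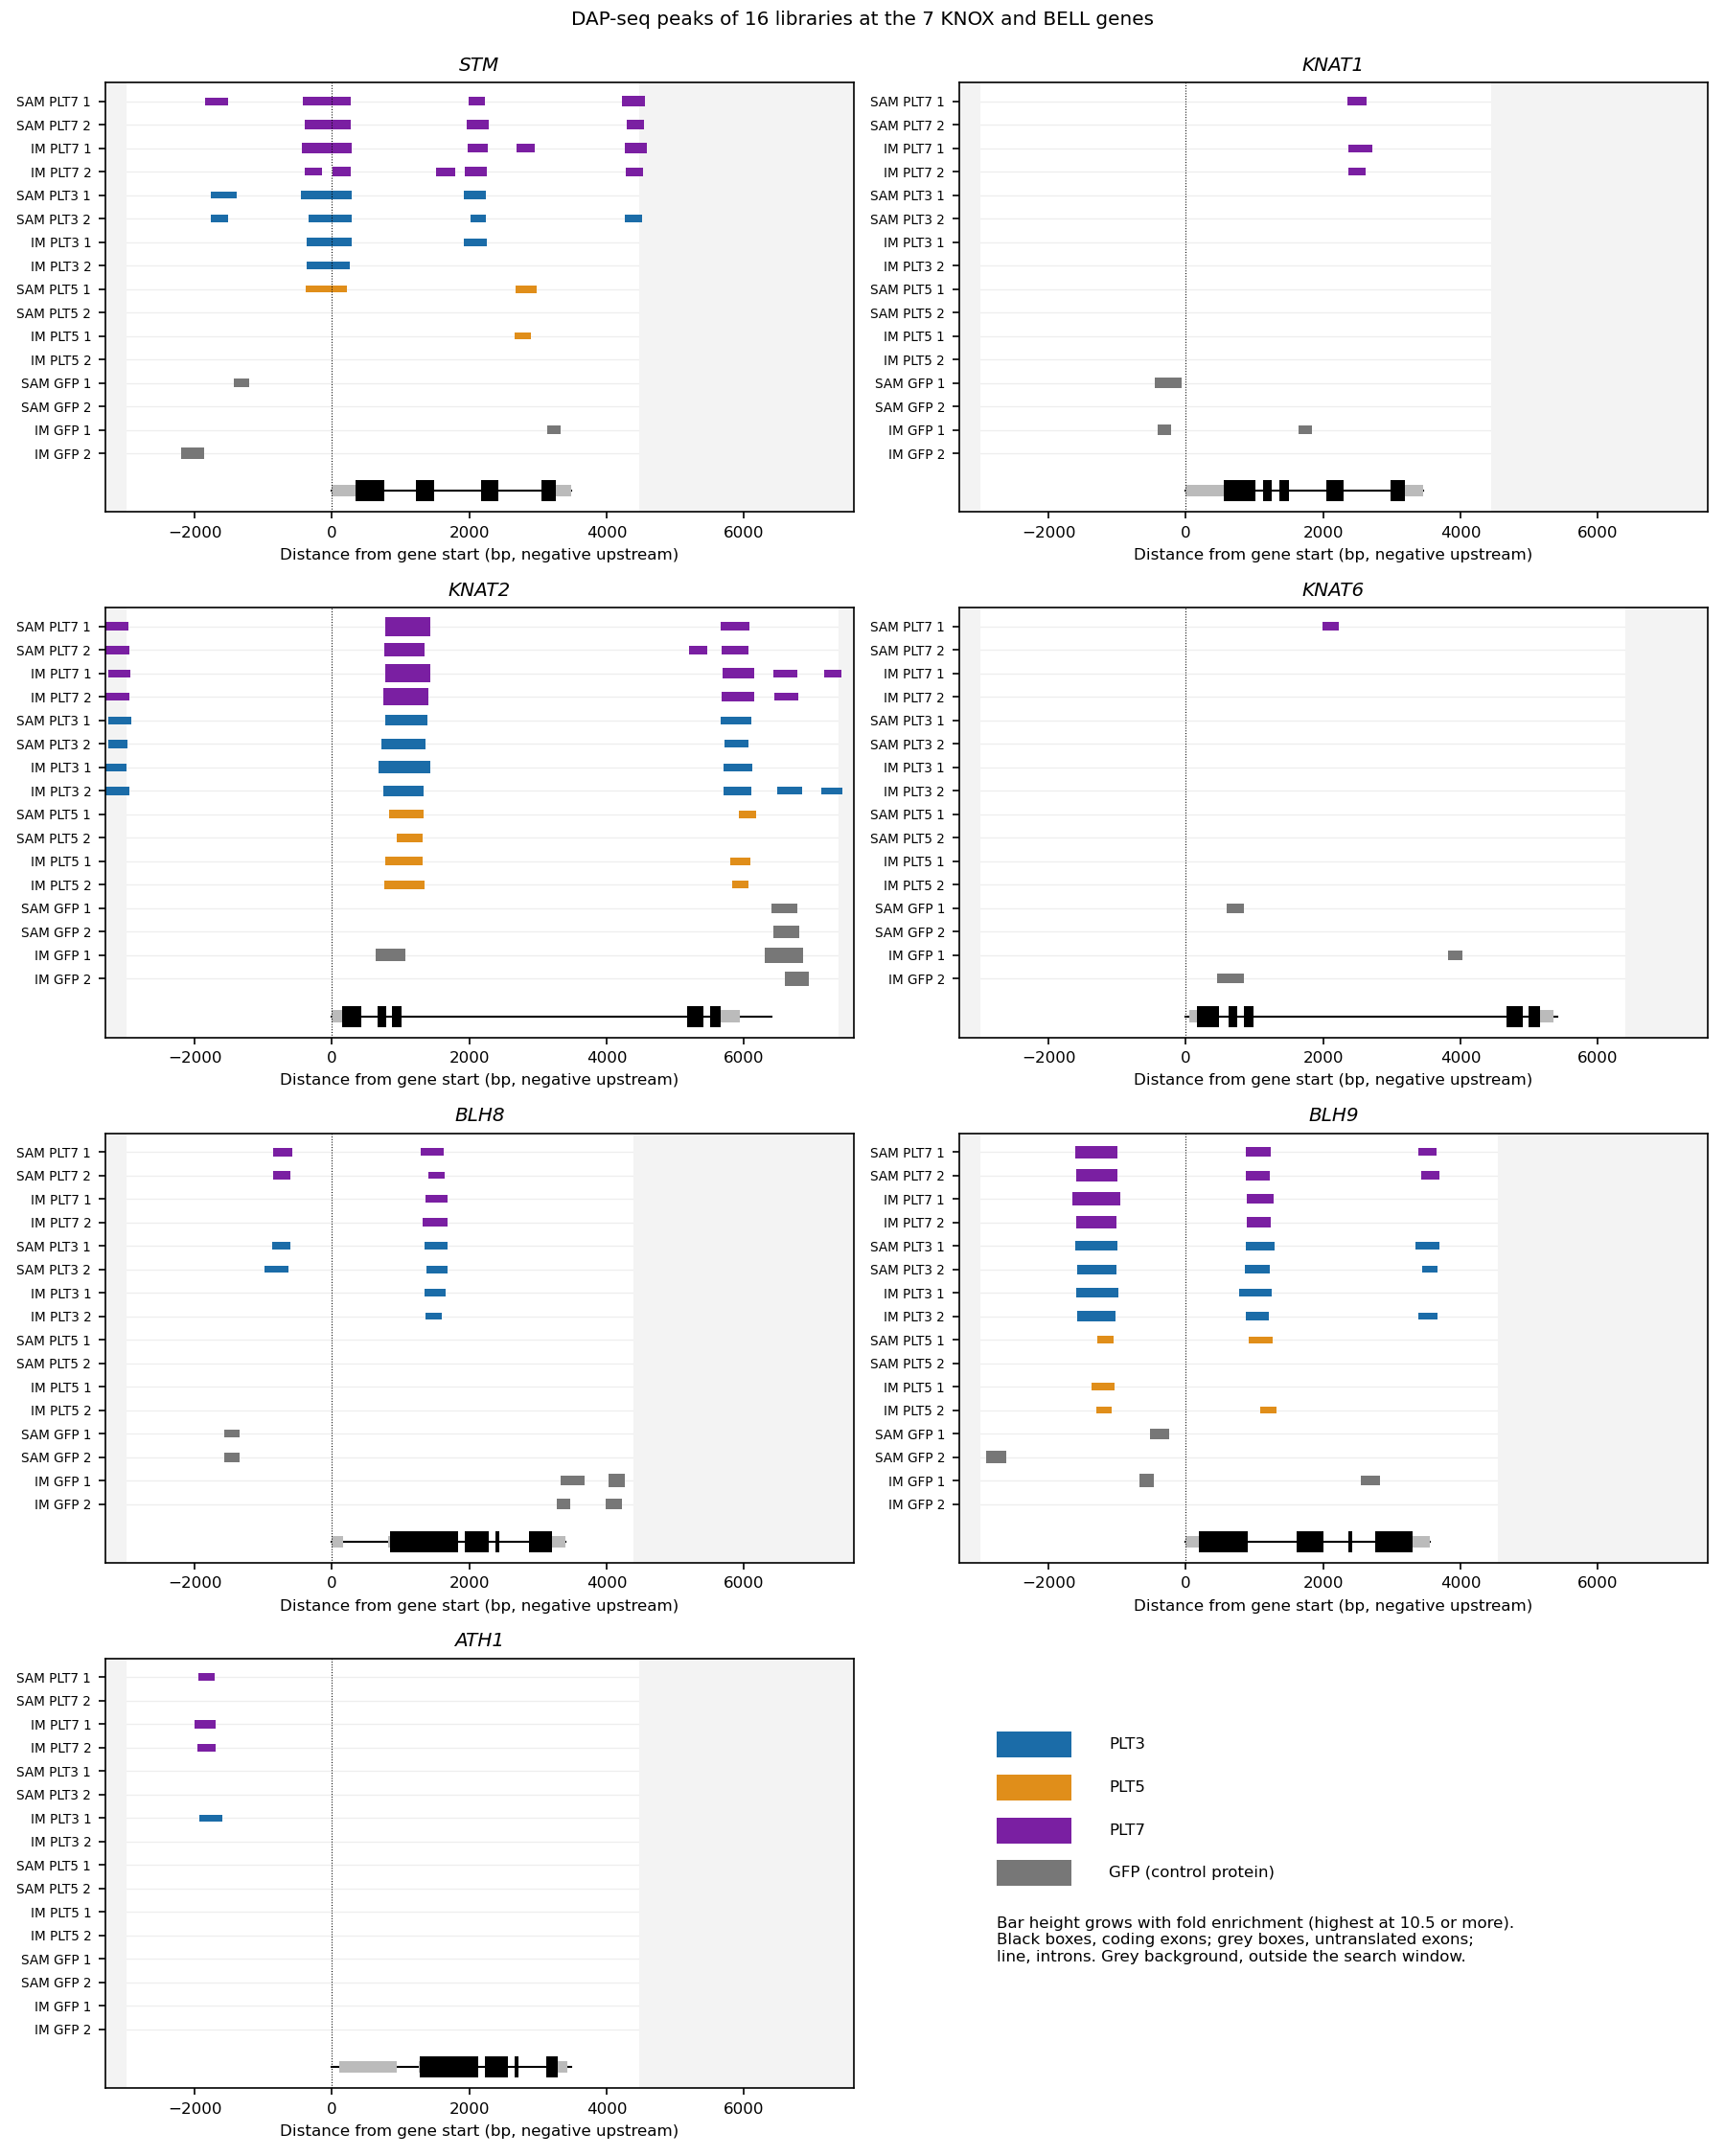
Peaks of 16 libraries around the 7 genes, drawn by distance from the gene start in bp, with 1 row per library, bar height growing with fold enrichment, and the gene model below (black, coding exons; grey, UTRs). KNAT2 carries a peak in intron 3 in all 12 PLT libraries, while KNAT6 has 1 PLT peak.

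A gene was called bound by a PLT in a tissue when its window held a peak that passed the replicate comparison (irreproducible discovery rate, IDR, below 0.05) and did not overlap a GFP peak of the same tissue by 1 bp or more. PLT3 bound 3 of the 7 genes in the SAM, where 61.4% of all protein-coding genes were bound, and 3 in the IM, where 66.8% were bound. These were STM, KNAT2 and BLH9 in both tissues. PLT7 bound 4 in the SAM (background 71.6%), namely STM, KNAT2, BLH8 and BLH9, and 6 in the IM (background 77.7%), with KNAT1 and ATH1 in addition. PLT5 bound KNAT2 alone in the SAM, where 2.93% of genes were bound, and 0 of the 7 in the IM, where 11.4% were bound. KNAT6 was bound in none of the 6 datasets, as were 15.9% of all genes. Without the removal of GFP peaks the counts were 3 of 7 for PLT3 in the SAM (background 63.8%), 1 for PLT5 (3.13%) and 4 for PLT7 (74.1%). For IM DNA they were 3 for PLT3 (70.7%), 1 for PLT5 (12.5%) and 6 for PLT7 (81.2%). With GFP peaks removed, KNAT2 was bound in 5 of the 6 datasets, and 11% of all genes were bound in at least 5. With so many genes bound by PLT3 and PLT7, the counts for the 7 genes lay near or below the background.

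The calls of PLT7 in the IM depended on the IDR threshold, since 3 of the 7 genes remained at 0.01. KNAT1, BLH8 and ATH1 had IDR values between 0.0305 and 0.0487 there. At 0.01, PLT3 in the IM kept 2 of the 7 genes, without KNAT2 (IDR 0.0412). PLT7 in the SAM kept 3, without BLH8 (IDR 0.0121). The share of all genes bound at 0.01 was not computed. Most bound positions also lay away from the gene start. In the narrower window of 1500 bp upstream to 500 bp downstream of the start, PLT3 bound 2 of the 7 genes in the SAM (background 29.9%) and 2 in the IM (32.8%). PLT7 bound 3 with SAM DNA (37.4%) and 2 with IM DNA (41.9%). PLT5 bound none there, against backgrounds of 1.09% for SAM DNA and 4.36% for IM DNA. STM and BLH9 were the genes bound near their start by both PLT3 and PLT7 in both tissues, and BLH8 joined them for PLT7 in the SAM. The other 4 genes were not bound in this window in any dataset, as were 49.4% of all genes.

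**Figure D2:**
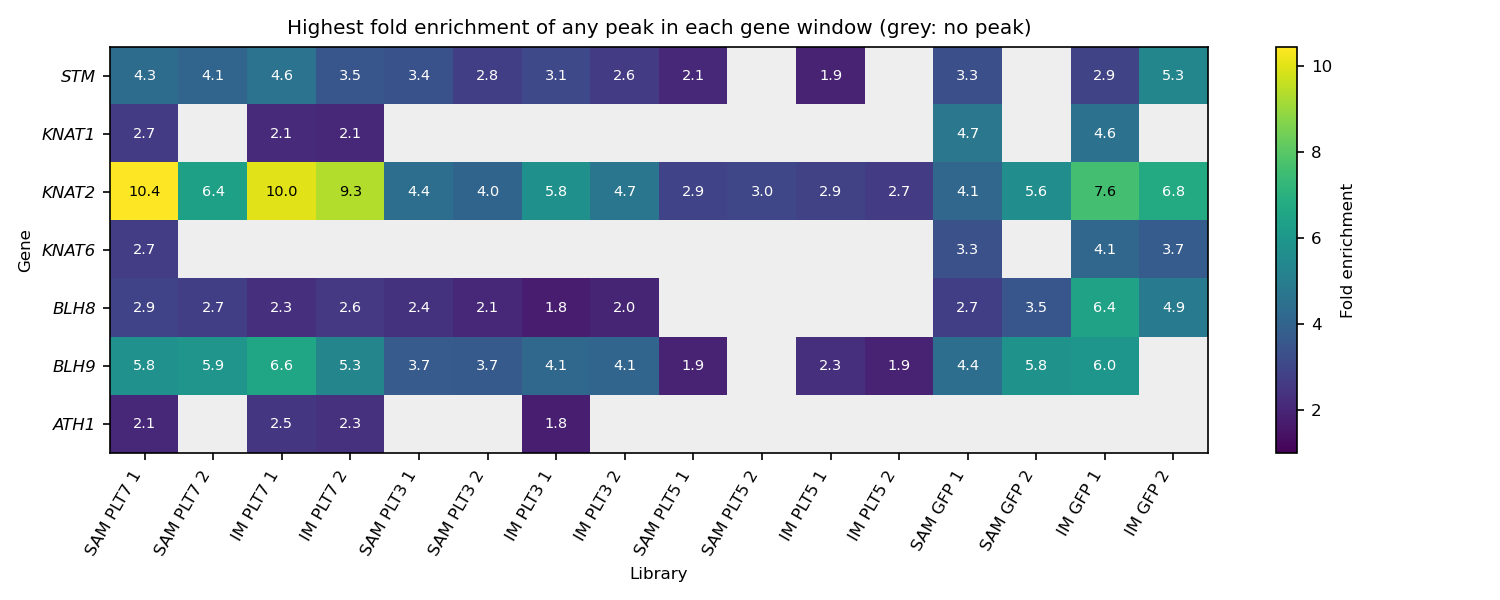
Highest fold enrichment of any peak in the window of each gene (rows) in each of 16 libraries (columns), with grey cells where no peak was called. KNAT2 reaches 10.4 with PLT7, and the GFP columns show the control peaks of the same windows. Median fold enrichment was higher in the GFP than in the PLT libraries, so their colours are not directly comparable.

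Linking the summits gave 23 sites, 16 of which had a peak in both replicates of at least 1 bait and tissue. KNAT2 had 5 of the 16, STM 4, BLH9 3, BLH8 2, KNAT1 1 and ATH1 1. By annotation, 5 of them lay upstream, 4 in introns, 4 in UTRs, 1 in a coding exon and 2 downstream. The other 7 sites had no peak in both replicates of any dataset and rested on 1 to 3 libraries each. In the account below the value is the fold enrichment of the peak over its local background, as the peak caller gave it, and values are given as replicate 1 and replicate 2. The median over all nuclear peaks was 4.11 to 4.69 in the GFP libraries and 1.99 to 3.75 in the PLT libraries. Values of GFP and PLT peaks are therefore not directly comparable.

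KNAT2 (AT1G70510, chr1:26576486-26582879, plus strand), a class I KNOX gene known for a role in carpel development, held the strongest PLT peak of the 7 genes, at +1106 bp in intron 3, which is 4162 bp long. With PLT7 the fold enrichment was 10.4 and 6.38 with SAM DNA and 10.02 and 9.35 with IM DNA. With PLT3 it was 4.43 and 4.05 with SAM DNA and 5.75 and 4.70 with IM DNA. With PLT5 it was 2.90 and 3.00 with SAM DNA and 2.85 and 2.69 with IM DNA. All 4 PLT7 values lay above all 4 PLT3 values, which lay above all 4 PLT5 values. SAM and IM values overlapped for PLT7, whereas the IM values were the higher pair for PLT3 and the lower pair for PLT5. Such an order was common, since the PLT7 values exceeded all PLT3 values at 80.5% of the 12218 sites with a peak in all 8 libraries of these baits. The PLT3 values exceeded all PLT5 values at 84.5% of the 1649 sites with a peak in all 12 libraries. A peak in all 12 PLT libraries was less common, at 4.95% of 33344 sites. Within each library the peak ranked between the 91.9th and the 99.5th percentile of all peaks, and its summits lay within 51 bp of each other.

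The intron site was kept for all 3 PLTs in the SAM and removed for all 3 in the IM by the GFP criterion. A peak of IM GFP replicate 1 ran from +633 to +1063 bp, with its summit at +934 bp in a coding exon and a fold enrichment of 5.81. The 6 IM PLT peaks started between +685 and +778 bp and ended between +1327 and +1430 bp, so the GFP peak covered their upstream part. Their summits lay from +1075 to +1107 bp, past the end of the GFP peak. IM GFP replicate 2 and both SAM GFP libraries had no peak there. When a GFP peak had to be present in both GFP replicates, an alternative chosen after seeing the data, KNAT2 was also bound by PLT5 in the IM, as it was when no GFP peak was removed (12.5% of all genes). KNAT2 stayed bound by PLT3 and PLT7 in the IM through its 3′ end. For PLT3 this call had an IDR of 0.0412 and was lost at a threshold of 0.01, whereas for PLT7 the IDR was 0.000267.

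At the 3′ end of KNAT2, 11 of the 12 PLT libraries had a peak. Their summits formed 2 neighbouring sites, at +5818 and +5978 bp, under overlapping peaks in the 3′ UTR. The gene start nearest to them was that of AT1G70518, a non-coding RNA gene on the same strand. The sites lay at -1266 and -1106 bp from that start. The summit of SAM PLT7 lay at +5818 bp, with values of 2.81 and 2.93, as did that of SAM PLT3 replicate 2 (2.20). The summits of IM PLT7 lay at +5978 bp, with values of 4.42 and 3.49, beside IM PLT3 (2.15 and 2.73), IM PLT5 (1.96 and 2.10), SAM PLT3 replicate 1 (2.68) and SAM PLT5 replicate 1 (1.81). Each of the 2 positions carried a matrix match that passed. The division into 2 sites rests on the linking distance, because at 200 bp they became 1 site with 11 libraries.

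KNAT2 had 2 further sites. At -3100 bp, a peak at the edge of the window occurred in all 8 PLT3 and PLT7 libraries and in no PLT5 library. PLT7 values were 2.83 and 2.69 with SAM DNA and 2.49 and 2.38 with IM DNA, and PLT3 values 2.09 and 2.69 with SAM DNA and 2.17 and 2.495 with IM DNA, so that the baits overlapped. In the IM this site overlapped a peak of GFP replicate 1 as well. At +6544 bp, downstream of the gene and at -540 bp from the start of AT1G70518, PLT peaks appeared in 3 IM libraries with values of 1.97 to 2.20. This position was overlapped by peaks of all 4 GFP libraries, as were 0.351% of all sites. The GFP values were 4.11 and 5.63 with SAM DNA and 7.62 and 6.77 with IM DNA. Within their own libraries the GFP peaks stood at the 55.7th to the 93.95th percentile, and the PLT peaks at the 3.53rd to the 18.65th.

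KNAT6 (AT1G23380, chr1:8297241-8302651, minus strand), the closest paralogue of KNAT2, has an intron 3 of similar size, 3676 bp. This intron held the only PLT peak of the gene, at +2105 bp in SAM PLT7 replicate 1, with a fold enrichment of 2.72 and none in replicate 2. GFP peaks were found at +720 bp (SAM replicate 1, 3.33), +762 bp (IM replicate 2, 3.75) and +3940 bp (IM replicate 1, 4.10). PLT peaks were thus called in 12 libraries at KNAT2 and in 1 at KNAT6.

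STM (AT1G62360, chr1:23058582-23062063, minus strand) was bound at its start, in an intron and downstream. The site at +171 bp in the 5′ UTR had a peak in all 8 PLT3 and PLT7 libraries. PLT7 gave 3.42 and 4.08 with SAM DNA and 4.61 and 3.44 with IM DNA, and PLT3 gave 3.11 and 2.77 with SAM DNA and 3.09 and 2.64 with IM DNA. The PLT7 values were again all above the PLT3 values, and the tissues overlapped. SAM PLT5 replicate 1 also had a peak across the start (1.74), with its summit at c. -305 bp, a position shared with IM PLT7 replicate 2 only. PLT5 peaks lay in intron 3 as well, at c. +2822 bp, in SAM replicate 1 (2.09) and IM replicate 1 (1.89), beside IM PLT7 replicate 1 (3.08). Neither position had a peak in both replicates of a dataset. The second site lay at +2121 bp in intron 2, with PLT7 values of 3.37 and 3.45 with SAM DNA and 3.23 and 3.54 with IM DNA. PLT3 gave 3.38 and 2.61 there in the SAM and 2.29 in IM replicate 1, while IM replicate 2 had no peak.

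Downstream of STM, at +4441 bp, PLT7 gave 4.32 and 3.10 with SAM DNA and 3.86 and 2.92 with IM DNA, and PLT3 gave a peak in SAM replicate 2 only (2.69). This position lies at -412 bp from the start of MIR413, a microRNA gene on the opposite strand, and inside AT1G62350, so it cannot be assigned to STM by distance. At -1648 bp, SAM PLT3 (2.00 and 2.08) and SAM PLT7 replicate 1 (2.33) had weak peaks and no IM library did. The SAM PLT3 pair did not pass the IDR threshold (0.0663) and overlapped a peak of SAM GFP replicate 1. The GFP peaks near STM had their summits at -1268 bp (SAM replicate 1, 3.31), -1937 bp (IM replicate 2, 5.35) and +3171 bp (IM replicate 1, 2.93), away from the 3 main PLT sites.

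KNAT1 (AT4G08150, chr4:5147699-5151159, minus strand) had a single site, at +2499 bp in intron 4. PLT7 gave 2.68 in SAM replicate 1 and 2.13 and 2.06 in the IM. The values stood at the 21.6th, 6.495th and 5.44th percentile of their libraries, so the peak was among the weak ones although its matrix match passed. SAM PLT7 replicate 2, PLT3 and PLT5 had no peak. GFP peaks lay just upstream of the gene, at -267 bp in SAM replicate 1 (4.75) and -258 bp in IM replicate 1 (4.57). They stood at the 72.1st and 45.7th percentile of their libraries. IM GFP replicate 1 had another peak at +1697 bp (3.27).

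BLH9 (AT5G02030, chr5:395567-399125, plus strand; RPL in RefSeq), a BELL partner of STM and KNAT1, was the most strongly bound BELL gene of the 3. Upstream at -1167 bp, PLT7 gave 5.76 and 5.93 with SAM DNA and 6.56 and 5.31 with IM DNA. PLT3 gave 3.73 and 3.65 with SAM DNA and 4.15 and 4.08 with IM DNA. PLT5 gave 1.90 in SAM replicate 1, none in SAM replicate 2, and 2.26 and 1.90 in the IM, where the pair did not pass the IDR threshold (0.142). The PLT7 and PLT3 values did not overlap. The tissues overlapped for PLT7, and the IM pair was the higher one for PLT3. A peak in at least 11 of 12 PLT libraries was found at 9.82% of sites. The peak ranked between the 82.0th and the 95.6th percentile in the PLT3 and PLT7 libraries, whereas the best matrix match ranked low, as given beside its sequence. Of the other sites with a peak in 11 or 12 libraries, 65.8% had a match that passed. The sequence of BLH9 -1167 was scored within 50 bp of its median summit. Both IM PLT7 summits, at -1258 and -1260 bp, lay outside that window, so the DNA around them was not scored in the main setting. With 100 bp on each side, a window that just reached these summits, no match passed either.

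The second BLH9 site, at +1087 bp in intron 1, was weaker and had a match that passed. PLT7 gave 4.06 and 3.78 with SAM DNA and 3.55 and 3.80 with IM DNA. PLT3 gave 2.83 in SAM replicate 1 and 2.77 and 3.13 in the IM, and the peak of SAM PLT3 replicate 2 had its summit at +945 bp, too far to be linked. PLT5 gave 1.62 in SAM replicate 1 and 1.73 in IM replicate 2. Another site at +3514 bp in the 3′ UTR had values of 1.88 to 2.57 in all 4 SAM libraries of PLT3 and PLT7 and in IM PLT3 replicate 2. GFP peaks lay at -483 bp (SAM replicate 1, 4.42), -506 bp (IM replicate 1, 5.96), -2665 bp (SAM replicate 2, 5.80) and +2640 bp (IM replicate 1, 3.71), and none overlapped a PLT site.

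BLH8 (AT2G27990, chr2:11921350-11924748, minus strand), which acts with BLH9 in the shoot, had 2 weaker sites. The upstream site at -738 bp occurred in SAM DNA only. PLT7 gave 2.90 and 2.75 and PLT3 gave 2.39 and 2.00 in the SAM, and none of the 6 PLT libraries of the IM had a peak there. A peak in at least 3 of the 4 SAM libraries and in none of the 4 IM libraries of these baits was found at 0.948% of sites. The SAM PLT7 pair passed the IDR threshold (0.0121) and the SAM PLT3 pair did not (0.0545). Since a missing peak has no value, no test of this difference was possible. The site at +1564 bp in a coding exon occurred in all 8 PLT3 and PLT7 libraries, at 1.76 to 2.58 with PLT7 and 1.77 to 2.08 with PLT3, and passed the IDR threshold for PLT7 in the IM only (0.0487). SAM GFP peaks lay upstream, at -1423 and -1375 bp, and IM GFP peaks had their summits past the 3′ end, at +3429 and +3420 bp and at +4170 and +4133 bp.

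ATH1 (AT4G32980, chr4:15914670-15918153, minus strand), a BELL gene with roles in the vegetative and floral meristem, had 1 site at -1817 bp. PLT7 gave 2.08 in SAM replicate 1 and 2.48 and 2.34 in the IM, and PLT3 gave 1.79 in IM replicate 1. These values lay at the 5.29th to the 15.06th percentile of their libraries. The site is 260 bp upstream of the start of AT4G32990, a divergent protein-coding neighbour, and is nearer to that start than to ATH1. No GFP peak fell into the window.

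**Figure D3:**
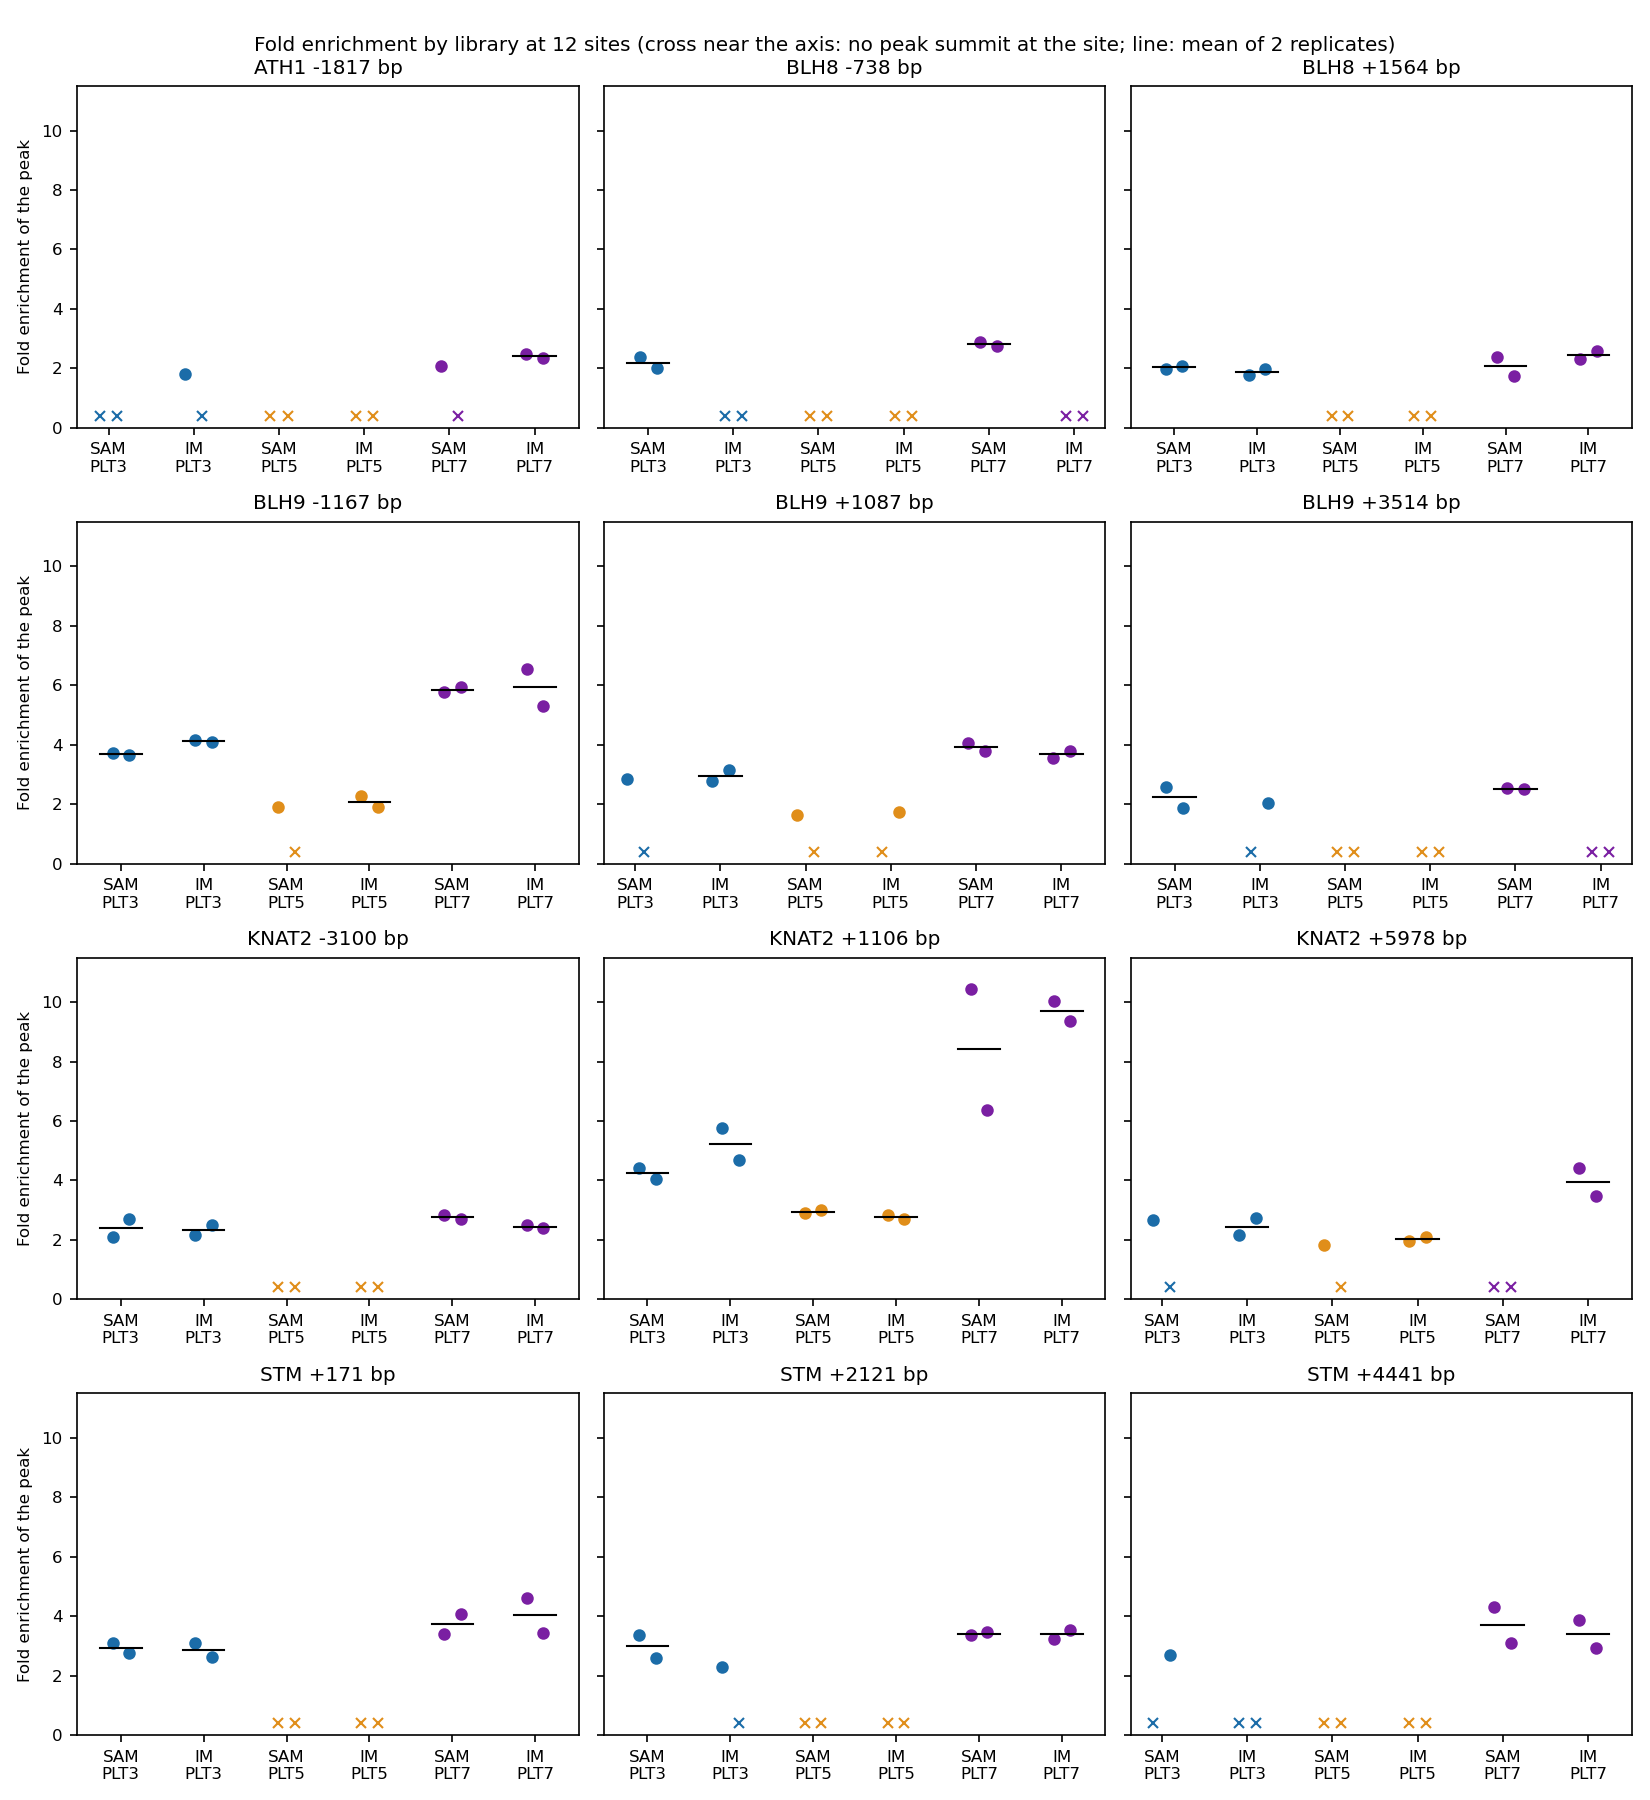
Fold enrichment of the peak (vertical axis) at the 12 sites with a peak in at least 4 of the 12 PLT libraries, grouped by bait and tissue, with 1 point per replicate, a line at the mean of 2 replicates and a cross where no summit belonged to the site. KNAT2 +1106 has a value in all 12 libraries, and BLH8 -738 has values in SAM libraries only. At KNAT2 +5978 the crosses of SAM PLT7 stand for peaks whose summits lay at +5818 bp.

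PLT7 and PLT3 were compared at sites with a peak in all 8 of their libraries, with limma on log2 fold enrichment centred on the median of each library. Centring was used because PLT7 exceeded PLT3 by 0.66 on the log2 scale at the median site, so a negative difference means a smaller excess of PLT7 than at the median site. Of 12218 sites, 17.3% had a higher and 19.7% a lower relative value with PLT7 (adjusted p below 0.05, Benjamini-Hochberg over all sites). Of the 5 sites of the 7 genes that could be tested, 2 were lower and 0 were higher. At an unadjusted p below 0.05, 4 of the 5 differed, as did 46.6% of all sites. KNAT2 -3100 differed by -0.52 (SE 0.11, limma adjusted p = 0.000359) and BLH8 +1564 by -0.46 (SE 0.11, limma adjusted p = 0.000967). They were the 2 weakest of the 5 sites. With PLT7, the peaks of KNAT2 -3100 stood at the 13.6th to the 26.2nd percentile of their libraries, and those of BLH8 +1564 at the 0.222nd to the 20.02nd. Only sites called in all 8 libraries entered the fit, and what this selection does at weak sites was not tested. On the scale without centring the differences at KNAT2 -3100 and BLH8 +1564 were 0.14 and 0.20, with PLT7 higher, and did not pass (limma adjusted p = 0.271 and 0.120). With quantile normalization neither relative difference passed.

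KNAT2 +1106 had a relative difference of 0.26 (SE 0.11, limma adjusted p = 0.0551) and STM +171 one of -0.25 (SE 0.11, limma adjusted p = 0.0709). BLH9 -1167 differed by -0.07 (SE 0.10, limma adjusted p = 0.627). Without SAM PLT7 replicate 2, KNAT2 +1106 (0.41, limma adjusted p = 0.00323) and STM +171 (-0.34, limma adjusted p = 0.0147) passed as well. KNAT2 +1106 also passed without IM PLT3 replicate 1 (0.33, limma adjusted p = 0.0325), whereas without SAM PLT7 replicate 1 its difference was 0.13 (limma adjusted p = 0.399). Before centring, PLT7 was higher than PLT3 at all 5 sites, by 0.14 to 0.92. With summits linked at 200 bp, KNAT2 +1106 passed (0.29, limma adjusted p = 0.0368), so that 3 of 7 tested sites differed. This linking added the 3′ end of KNAT2 (-0.17, SE 0.11, limma adjusted p = 0.212) and BLH9 +1087 (-0.25, SE 0.10, limma adjusted p = 0.0553).

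**Figure D4:**
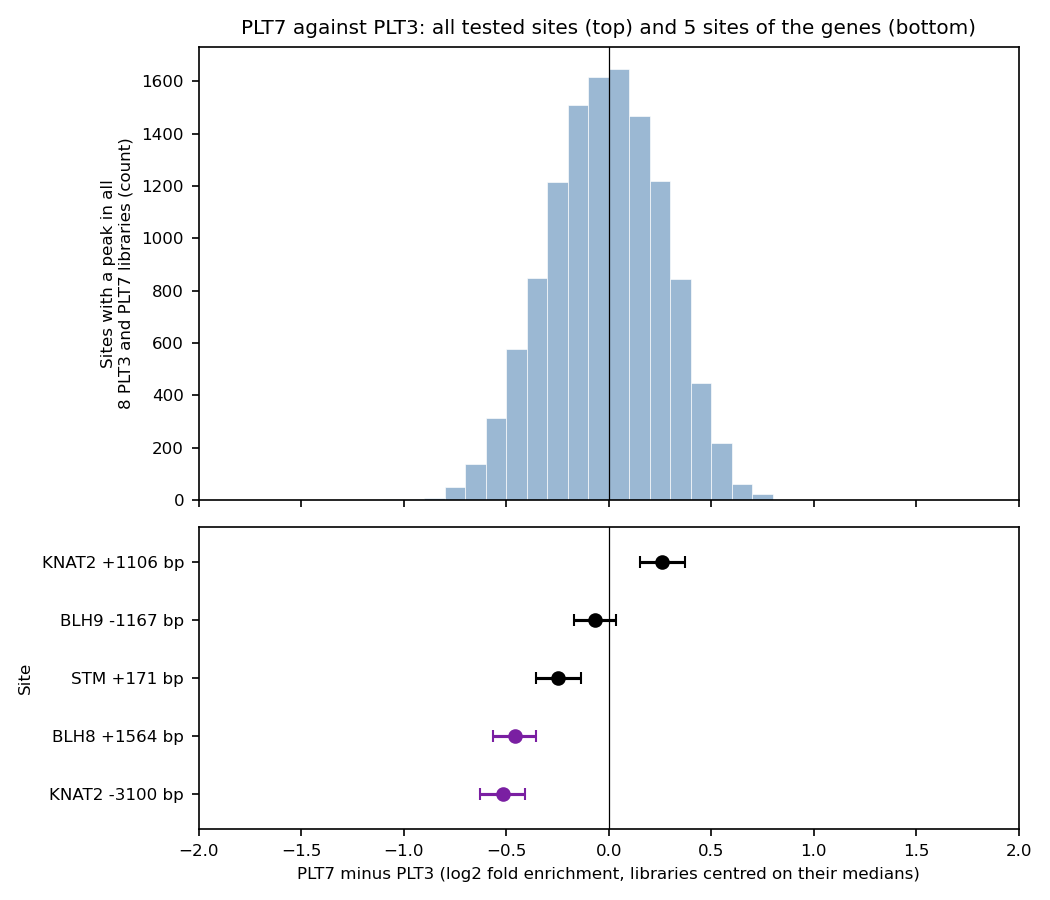
PLT7 minus PLT3 in centred log2 fold enrichment, as a histogram over 12218 sites (top) and for 5 sites of the 7 genes with the standard error of the fit (bottom; purple where the adjusted p is below 0.05). KNAT2 -3100 and BLH8 +1564 lie to the left at -0.52 and -0.46, and KNAT2 +1106 lies to the right at 0.26.

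The tissues were compared in the same fit. Of all sites, 0.426% were higher and 0.876% lower in the IM than in the SAM. None of the 5 tested sites passed, with limma adjusted p between 0.347 and 0.967, and 0 of them had an unadjusted p below 0.05, compared with 16.4% of all sites. The difference was 0.17 (SE 0.11) at KNAT2 +1106 and -0.20 (SE 0.11) at KNAT2 -3100, and the other 3 lay between -0.07 and -0.01. The interaction of bait and tissue was called at 0 sites of the genome (4.4% at an unadjusted p below 0.05), and at none of these 5, where the smallest unadjusted p was 0.140.

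Of the 16 sites, 6 (37.5%) had a matrix match above the threshold, compared with 43.0% of 32725 other sites and 5% of windows 500 bp away. At the stricter threshold passed by 1% of the background windows, 3 sites remained, KNAT2 +1106, KNAT2 +5818 and BLH9 +1087, and 17.4% of other sites. These 3 passed under all 4 other settings too, which also used 25 bp or 100 bp around the summit or a matrix from PLT3. KNAT1 +2499, BLH8 -738 and KNAT2 +5978 each failed under at least 2 of them. None of the 4 STM sites passed in the main setting, and STM +2121 passed with 25 bp and with the PLT3 matrix.

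**Figure D5:**
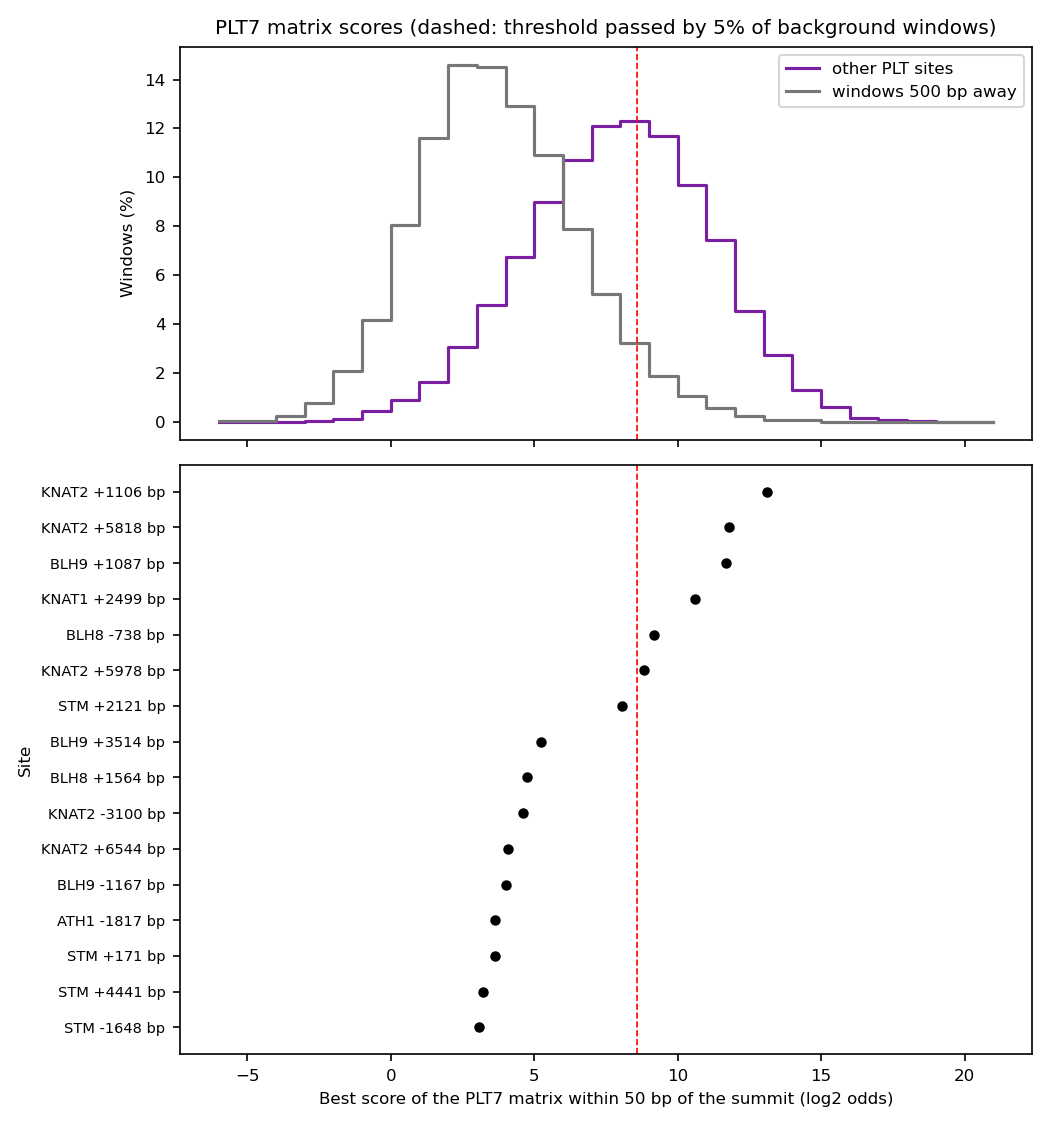
Best score of the PLT7 matrix within 50 bp of the summit (horizontal axis, log2 odds) in other PLT sites and in windows 500 bp away (top, percent of windows) and in the 16 sites of the 7 genes (bottom). The dashed line is the threshold of 8.60, and 6 of the 16 sites lie to its right, with KNAT2 +1106 highest at 13.1.

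Relatives and neighbours of the pathway were counted by the same rule for PLT7. Class II KNOX genes and KNATM were bound in 3 of 5 cases with SAM DNA and 4 of 5 with IM DNA, and the other BELL genes in 8 of 10 cases in both tissues. The regulators of class I KNOX genes, the repressors AS1 and AS2 with BOP1, BOP2 and JLO, were bound in 5 of 5 cases in both tissues. Hormone genes that act downstream of KNOX proteins, IPT7 of cytokinin synthesis and GA20OX1, GA2OX2 and GA2OX4 of gibberellin metabolism, were bound in 2 of 4 cases in both tissues. The backgrounds were again 71.6% and 77.7%. GA20OX1 had PLT7 peaks of 5.12 to 7.41 but was bound in 0 of the 6 datasets by this rule. Without the removal of GFP peaks, PLT7 bound 4 of the 4 hormone genes in the IM, GA20OX1 among them (background 81.2%).

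The genes most alike in their pattern over 16 libraries, by Pearson's r of log2(1 + highest fold enrichment in the window), were AT3G56760 (r = 0.99) and AT5G51790 (r = 0.98) for STM. For KNAT2 they were AT2G30840 and GSTF9 (both r = 0.97), and for BLH9 AT4G08170 and AT4G09775 (both r = 0.99). For BLH8 they were AT1G54730 and SCRL15 (both r = 0.996). KNAT1 was most like MYB51 and AT5G12043 (both r = 0.99), and KNAT6 most like AT1G52190 and TED6 (both r = 0.99). ATH1 was most like AT4G32990, whose window shares its peak, and AT2G31981 (both r = 1 after rounding). The values for KNAT1, KNAT6 and ATH1 rest on 5, 4 and 4 libraries with a peak. Of these, 2 were GFP libraries for KNAT1, 3 for KNAT6 and 0 for ATH1, so the pattern of KNAT6 is mostly one of control peaks. All libraries of a bait share its protein, and those of a tissue its DNA source, and 4 to 225 genes had an r above 0.9 with each member, so these are descriptions only.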

How the data were processed

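DAP-seq peak lists of 16 libraries were used, grouped by bait and tissue from the sample titles. Per the submitters' processing notes, reads were processed with fastp 0.23.2, BWA 0.7.17 and SAMtools 1.15 against TAIR10, and the authors called peaks per library with MACS3 at a q-value of 0.1 and a maximum gap of 100 bp, without a control library. The fold enrichment is a deposited ratio to the local background. The peak caller run by the authors gave p and q on the −log10 scale (−log10 p-value, −log10 q-value), and the deposited score is 10 times the −log10 q-value. Read depth is not in the lists.

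The IDR model was rewritten and applied to the peaks of each replicate pair under Python 3.11.15 (numpy 2.4.6, pandas 2.3.3, scipy 1.17.1), with peaks ranked by fold enrichment, since the lists precede the authors' own IDR and GFP steps. Sites were tested with limma 3.58.1 in R 4.3.3, and the matrix was fitted by expectation maximisation to the 600 reproducible IM PLT7 peaks of highest fold enrichment outside the gene windows and clear of GFP peaks. All 3 steps were tested on simulated data. Organellar peaks were left out. Gene models were those of RefSeq TAIR10.1. The report covers the 7 genes with every site that had a peak in both replicates of a dataset. The genes, lists and tests were chosen with earlier results of these data known. Replicates were separate collections of meristems as far as the methods say, and p-values measure the spread between 2 libraries per group, which may be technical. Alternatives covered the IDR rule, GFP removal, windows, linking, normalization, the replicate block and each left-out library.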

Additional observations from a re-analysis of the deposited data

How the results depend on the processing

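The files give no depth, so fold enrichment comes without a counting error. The part of library yield in the order PLT7, PLT3, PLT5 of called peaks at the 7 genes was not tested. Counts of bound genes stayed within 1.5 times the main count in 53 of 66 alternatives, and the cause of the rest was not tested. The 1 gene bound by PLT5 in the SAM became 0 with GFP peaks of either tissue and 0 in the start window. The 0 genes of PLT5 in the IM became 2 without IDR, 2 at a q-value of 0.01, 1 without GFP removal and 1 when both GFP replicates had to agree. The 6 genes of PLT7 in the IM became 3 at an IDR of 0.01 and 2 in the start window. With a single replicate, counts ranged from 4 to 4 (PLT3, SAM), 1 to 3 (PLT5, SAM), 4 to 7 (PLT7, SAM), 4 to 5 (PLT3, IM), 2 to 3 (PLT5, IM) and 6 to 6 (PLT7, IM). The 7 genes of PLT7 in the SAM came from replicate 1 alone. Among these alternatives, the share of all genes was computed only for the start window and without GFP removal. The other counts therefore have no background and cannot be read against the genome.

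Of the 5 sites, 2 differed between PLT7 and PLT3, against 0 with quantile normalization, 3 without centring, 3 of 7 with summits linked at 200 bp, and 2 to 4 when 1 library was left out, with 4 without SAM PLT7 replicate 2. With summits linked at 50 bp, 2 sites could be tested and 1 differed, STM +171 (-0.27, adjusted p = 0.0441), which was not among the main 2. Without centring the direction reversed at BLH8 +1564 (0.20), BLH9 -1167 (0.59), KNAT2 -3100 (0.14) and STM +171 (0.41). Calls of all sites were then 99.9% higher with PLT7, against 46.7% in the main fit, and in the tissue comparison 94.4% higher in the IM, against 32.7%. Quantile normalization gave 431 higher and 415 lower sites, and −log10 p 865 and 1498, against 2109 and 2405. Deviations of equally numbered libraries correlated weakly, at 0.037 to 0.145, and the main fit did not pair them. Whether equal replicate numbers share a pool of DNA is not known here. Over all sites, the replicate block raised the tissue calls from 52 higher and 107 lower to 191 and 289. The bait calls became 2256 higher and 2568 lower. With the replicate block, 3 sites differed between baits, the third being KNAT2 +1106 (adjusted p = 0.0389), and 0 differed between tissues or in the interaction. The sites numbered 15 with summits linked at 50 bp or 200 bp and 23 when any 1 library sufficed. The 6 sites with a match fell to 3 at the threshold of 1%.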
